A study of Mus musculus with 18 samples.

Results

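The genes described here are 10 C-type lectin receptors that NK cells and ILC1 use to read other cells: Klrc1, Klrc2, Klrd1, Klrk1 and Klre1 of the NKG2 and CD94 group, Klrb1a, Klrb1b, Klrb1c and Klrb1f of the NKR-P1 group, and Klrg1. They were chosen by symbol, by mapping the versioned Ensembl identifiers of the lymphocyte count table to their names, and they are 10 of the 54309 genes listed. All 10 passed the filter on low counts, which left 13594 genes for testing. All 10 lie on chromosome 6 of GRCm39, 9 of them between Klrb1a (chr6:128586190-128600695, minus strand) and Klrc1 (chr6:129642978-129655936, minus strand), with Klrg1 apart from these at chr6:122246981-122259914 on the minus strand.

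The study induced liver metastases (LM) in female C57BL/6J mice aged 8 to 10 weeks by injecting MC38 colon adenocarcinoma cells into the spleen, and type 1 lymphocytes were sorted on day 20 from metastases or from metastasis-free liver (MFL). Every lymphocyte sort took live, lineage-negative, CD45+ NKp46+ cells. MFL NK cells and CD49a- LM NK cells were CD49a- CD49b+, CD49a+ LM NK cells carried both integrins, and MFL ILC1 were CD49a+ CD49b-. Each population had 3 libraries, each from 6 to 8 pooled samples, so p-values measure the spread between these pooled sorts. The CD49a+ LM NK libraries are titled as ILC1 by the submitters and were placed by their population label. All mice carried MC38 cells, there was no tumor-free control among these libraries, and metastases were digested with enzymes whereas MFL was mechanically disrupted, so that site and dissociation cannot be told apart.

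Depth ran from 8795721 to 14386834 estimated counts per library. Its medians were 13043713 in MFL NK cells, 9252160 in CD49a- LM NK cells, 10661557 in CD49a+ LM NK cells and 12353127 in MFL ILC1. The spread differed too: the biological coefficient of variation reached 0.517 for MFL NK cells and 0.657 for MFL ILC1, beside 1.09 in CD49a+ LM NK cells and 1.25 in CD49a- LM NK cells. The 4 genes that mark type 1 lymphocytes (Ncr1, Tbx21, Il2rb and Nkg7) summed to 3635 to 4349 CPM, which are counts scaled to a common library size, in every library. Itga1, which encodes CD49a and was used for sorting, averaged 134 CPM in CD49a+ LM NK cells against 11.4 CPM in CD49a- LM NK cells. MFL NK cells had 11.5 CPM of it, and MFL ILC1 had 663 CPM. Summed NK cell markers, the sorting gene Itga2 among them, were at 3258 to 3673 CPM in MFL NK cells and 3155 to 5353 CPM in CD49a- LM NK cells. They were at 1698 to 3123 CPM in CD49a+ LM NK cells and 173 to 299 CPM in MFL ILC1. Summed ILC1 markers, Itga1 among them, were in the same order at 39.9 to 60.4, 52.1 to 119, 280 to 358 and 1604 to 1613 CPM. Single NK cell markers differed between MFL NK and CD49a+ LM NK cells. Eomes averaged 668 and 687 CPM there and Irf8 1203 and 1138 CPM. Itgam averaged 936 and 253, Itga2 346 and 129, and S1pr5 250 and 39.2 CPM. Among the ILC1 markers, only Rora had a lower mean in MFL ILC1 (40.2 CPM) than in CD49a+ LM NK cells (93.3 CPM). Summed T cell markers (8 genes) reached 249 to 681 CPM in MFL ILC1 and 4.98 to 35.7 CPM in the other populations, and nearly all of it was Cd3g, with a mean of 472 CPM in MFL ILC1, where Cd3e averaged 0.122 CPM and Trac 5.50 CPM. The part of T cell markers in the receptor differences was not tested. Summed Kupffer cell, neutrophil and dendritic cell markers stayed at or under 5.16 CPM in every library. Summed hepatocyte markers were at 17.1 to 118 CPM for MFL NK cells and 34.8 to 87.0 CPM for MFL ILC1, beside 0 to 13.1 CPM in the metastasis populations, and their part in the receptor differences was not tested either. Summed B cell markers, mostly Ighm, were at 30.4 to 73.1 CPM for MFL NK cells and 15.9 to 83.2 CPM for CD49a- LM NK cells. In CD49a+ LM NK cells they were at 117 to 121 CPM and in MFL ILC1 at 138 to 184 CPM. Like Klrb1b and Klrc1, they were higher in both CD49a+ populations than in MFL NK cells. In MFL NK and CD49a- LM NK cells Ighm averaged 53.0 and 49.5 CPM, whereas Klrb1b averaged 168 and 284 CPM. Cd79a was at or near 0 throughout. Summed erythroid markers (4 globin genes) ranged from 77.2 to 856 CPM and overlapped among all populations. The part of either list was not tested.

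NK cells integrate signals from activating and inhibitory receptors, and many of these receptors are encoded together in the NK gene complex. CD94, the product of Klrd1, pairs either with NKG2A (Klrc1), which inhibits, or with NKG2C (Klrc2), which activates, and both heterodimers recognize the nonclassical MHC molecule Qa-1 (H2-T23). NKG2D (Klrk1) is an activating receptor for stress-induced ligands, NKR-P1 receptors bind Clr proteins of the Clec2 family, and KLRG1 is an inhibitory receptor for cadherins that is found on mature NK cells and effector T cells.

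Several of these receptors are near copies of each other, which bears on how reads are shared out among them. The aligned coding sequences of Klrc1 and Klrc2 were 83.05% identical and those of Klrb1b and Klrb1c 85.74%, computed from the GENCODE transcripts of GRCm39. Of the 31-base words of the canonical Klrc1 transcript, 54.45% also occurred in another gene, mostly Klrc2, and for Klrc2 the share was 57.21%, mostly with Klrc3. The share was 31.94% for Klrb1b and 21.1% for Klrb1c, in both mainly with the gene model Gm44511 (28.62% and 14.99%), and 18.89% for Klrb1a, mainly with Klrb1c. It was at or under 0.36% for Klrb1f, Klre1 and Klrk1, and no such word was shared for Klrd1 and Klrg1. Values of single Klrc and Klrb1a, Klrb1b and Klrb1c genes are therefore uncertain estimates, whereas those of Klrd1, Klrk1, Klre1, Klrb1f and Klrg1 are not limited in this way.

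The stretches of 60 coding bases in which each pair differs most are shown because they are what lets reads be assigned to one gene or the other. Capitals mark the bases at which the 2 aligned genes differ, 27 for Klrc1 and Klrc2 and 24 for Klrb1b and Klrb1c. All are on the minus strand of chromosome 6 of GRCm39 and are written 5′ to 3′. The Klrc stretches span an intron, at chr6:129654762-129655301 for Klrc1 and chr6:129636326-129636983 for Klrc2, whereas the Klrb1b (chr6:128803142-128803201) and Klrb1c (chr6:128765380-128765439) stretches are contiguous and lie at the start of the coding sequence, which in these type II membrane proteins encodes the cytoplasmic tail.
Klrc1: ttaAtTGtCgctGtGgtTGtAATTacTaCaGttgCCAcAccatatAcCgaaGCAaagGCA
Klrc2: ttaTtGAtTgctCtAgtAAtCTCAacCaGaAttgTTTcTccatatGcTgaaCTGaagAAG
Klrb1b: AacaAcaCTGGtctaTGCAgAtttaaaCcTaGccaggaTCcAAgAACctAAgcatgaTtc
Klrb1c: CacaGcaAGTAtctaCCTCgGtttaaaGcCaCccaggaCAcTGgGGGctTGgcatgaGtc

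Klrg1 varied most among the 10 receptors, with mean levels that differed 14.3-fold between the highest and the lowest population. It was measured at 148, 79.2 and 63.5 CPM in the 3 MFL NK libraries, at 23.8, 52.8 and 60.7 CPM in CD49a- LM NK cells, at 4.65, 23.2 and 25.5 CPM in CD49a+ LM NK cells and at 13.3, 2.42 and 4.55 CPM in MFL ILC1. All MFL NK libraries lay above all libraries of the other 3 populations, CD49a- LM and CD49a+ LM NK cells overlapped, and so did CD49a+ LM NK cells and MFL ILC1. MFL ILC1 had less Klrg1 than their NK counterparts, with means of 6.76 ± 5.78 and 96.8 ± 44.8 CPM (SD, n = 3 each) and a log2 fold change of -3.84 (SE 0.73, edgeR quasi-likelihood test, Benjamini-Hochberg adjusted p = 0.00468). The size rested partly on single libraries and moved both ways when they were left out. Without MFL NK replicate 1, the highest of the 3, the log2 fold change was -3.40 (edgeR adjusted p = 0.0363). Without MFL ILC1 replicate 1, the highest of its 3, it was -4.80 (edgeR adjusted p = 0.00347). By limma-voom it was -4.48 (limma adjusted p = 2.78e-05). For CD49a+ LM NK cells against MFL NK cells the log2 fold change was -2.44 (SE 0.68) but missed the threshold of 0.1 used throughout (edgeR adjusted p = 0.193). This difference was called by DESeq2 (-2.40, DESeq2 adjusted p = 0.0296) and by edgeR with no filter on low counts (adjusted p = 0.00087). The values against CD49a- LM NK cells, -1.36 (SE 0.66, edgeR adjusted p = 0.439), and against MFL ILC1, 1.40 (SE 0.67, edgeR adjusted p = 0.358), missed it too. In bulk RNA, fewer Klrg1-expressing cells and less Klrg1 RNA per cell cannot be told apart.

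**Figure D1:**
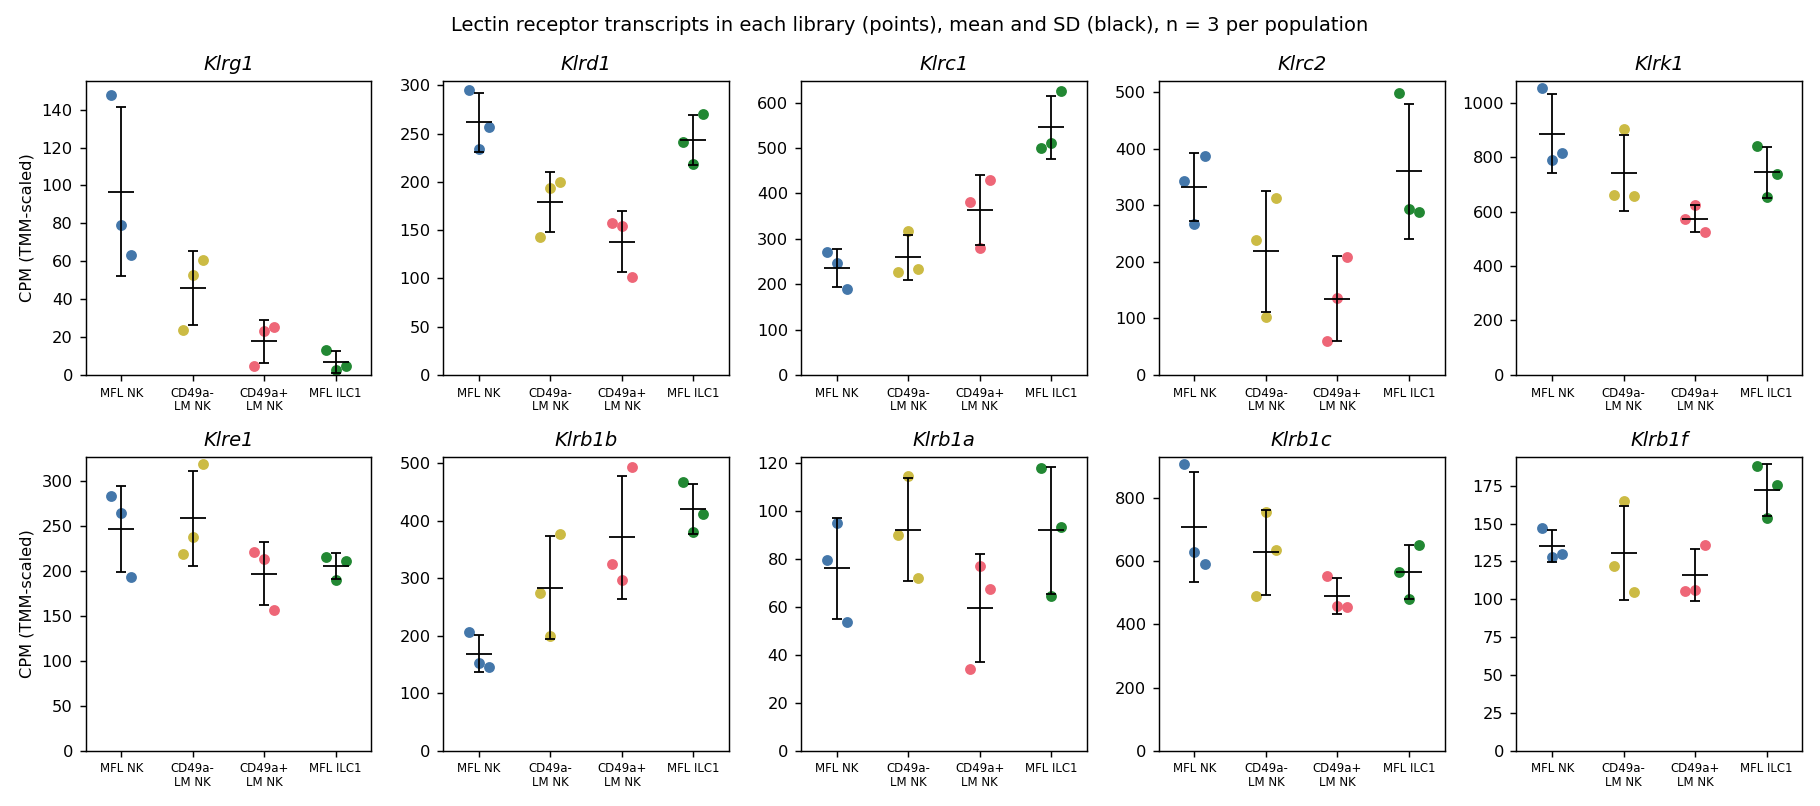
CPM (TMM-scaled, linear axes from 0) of each of the 10 receptors in the 12 lymphocyte libraries, with a point per library and the mean and SD of 3 libraries in black. Klrg1 goes from a mean of 96.8 CPM in MFL NK cells to 6.76 CPM in MFL ILC1, whereas Klrb1b and Klrc1 have their lowest mean in MFL NK cells and their highest in MFL ILC1.

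The 250 bases before the Klrg1 start site (chr6:122259915-122260164, minus strand, GRCm39) are shown because Klrg1 is the member with the widest range, and capitals mark a match to the T-box core AGGTGT, the kind of site that T-bet and Eomes bind. This motif, searched on both strands, was found in the same window of 12.347% of 21770 protein-coding genes and of 2 members, Klrg1 and Klrd1, and a match in a sequence is no evidence of binding.
Klrg1: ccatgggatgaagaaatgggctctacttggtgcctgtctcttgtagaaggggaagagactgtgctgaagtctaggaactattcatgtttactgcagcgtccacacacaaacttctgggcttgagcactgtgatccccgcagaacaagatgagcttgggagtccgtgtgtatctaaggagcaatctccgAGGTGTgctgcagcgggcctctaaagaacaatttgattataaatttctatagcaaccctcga

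Across the 12 libraries the gene whose centred log2 CPM profile was nearest to that of Klrg1 was Itga2, which encodes the sorting marker CD49b, at a root mean square distance of 0.70 among 9749 candidate genes. Itga2 averaged 346 CPM in MFL NK cells, 293 CPM in CD49a- LM NK cells, 129 CPM in CD49a+ LM NK cells and 37.0 CPM in MFL ILC1, the same order as Klrg1. The distance was wide compared with those of the other members, which lay between 0.15 and 0.32 from their nearest gene.

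Klrc1, the inhibitory partner of CD94, had the opposite order of means to Klrg1. MFL NK libraries had 270, 246 and 190 CPM of it, followed by 228, 316 and 233 CPM in CD49a- LM NK cells, 382, 279 and 431 CPM in CD49a+ LM NK cells and 499, 512 and 626 CPM in MFL ILC1. MFL ILC1 lay above all other libraries, and CD49a+ LM NK cells lay above MFL NK cells without overlap but overlapped CD49a- LM NK cells. MFL ILC1 had more Klrc1 than MFL NK cells, by 1.21 on the log2 scale (SE 0.24, edgeR adjusted p = 0.00572). The difference of CD49a+ LM from CD49a- LM NK cells was 0.49 (SE 0.23), with an unadjusted p of 0.0497 that did not survive adjustment in edgeR (adjusted p = 0.429). Against MFL NK cells it was 0.63 (SE 0.23, edgeR adjusted p = 0.397), and against MFL ILC1 -0.59 (SE 0.23, edgeR adjusted p = 0.255).

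Klrc2, the activating counterpart, varied more between libraries of the same population. Klrc2 stood at 343, 267 and 387 CPM in MFL NK cells, at 240, 103 and 314 CPM in CD49a- LM NK cells, at 59.8, 136 and 209 CPM in CD49a+ LM NK cells and at 498, 294 and 289 CPM in MFL ILC1. All 3 CD49a+ LM NK libraries lay below all libraries of both MFL populations but overlapped CD49a- LM NK cells. Klrc2 was lower in CD49a+ LM NK cells than in MFL ILC1, by -1.42 on the log2 scale (SE 0.41, edgeR adjusted p = 0.0921), and the value against MFL NK cells was -1.30 (SE 0.41, edgeR adjusted p = 0.293), a difference called by limma-voom (-1.37, limma adjusted p = 0.0922) and by edgeR with no filter (adjusted p = 0.00031). Klrc3, a close relative of Klrc2 that shares long stretches of sequence with it, had between 0.111 and 45.5 CPM.

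Klrd1, which encodes the shared partner CD94 and has no near copy, had its lowest mean in CD49a+ LM NK cells. So did Klrc2, Klrk1, Klre1, Klrb1a, Klrb1c and Klrb1f. Of these receptors, all but Klrk1 overlapped there with the population of the next lowest mean. The share of all genes tested with their lowest mean in CD49a+ LM NK cells was not computed. Klrd1 was measured at 295, 234 and 257 CPM in MFL NK cells, at 143, 194 and 200.4 CPM in CD49a- LM NK cells, at 158, 154 and 101 CPM in CD49a+ LM NK cells and at 241, 219 and 270.4 CPM in MFL ILC1. Both metastasis populations lay below both MFL populations without overlap, and they overlapped each other. Klrd1 was lower in CD49a+ LM NK cells than in MFL ILC1, by -0.82 on the log2 scale (SE 0.23, edgeR adjusted p = 0.0848). The values against MFL NK cells were -0.93 for CD49a+ LM NK cells (SE 0.23, edgeR adjusted p = 0.123, called at 0.0897 and 0.0774 without CD49a- LM NK replicate 1 or 2) and -0.55 for CD49a- LM NK cells (SE 0.23, edgeR adjusted p = 0.726). DESeq2 (-0.88, DESeq2 adjusted p = 0.0299) and edgeR with no filter (adjusted p = 0.0584) called Klrd1 lower in CD49a+ LM NK cells against MFL NK cells. MFL ILC1 and MFL NK cells overlapped in Klrd1, at means of 243 ± 25.8 and 262 ± 30.8 CPM (SD, n = 3).

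The calls of Klrc2 and Klrd1 against MFL ILC1 lay close to the threshold and were lost when single libraries were left out. For Klrc2 the adjusted p in edgeR was 0.119, 0.101 and 0.103 without MFL NK replicate 1, 2 or 3, 0.322 and 0.171 without CD49a+ LM NK replicate 1 or 2, and 0.348, 0.120 and 0.121 without MFL ILC1 replicate 1, 2 or 3. For Klrd1 it was 0.116, 0.141 and 0.135 without MFL NK replicate 1, 2 or 3, 0.117 and 0.292 without CD49a+ LM NK replicate 1 or 3, and 0.207, 0.175 and 0.334 without MFL ILC1 replicate 1, 2 or 3. Both kept their direction under every alternative run.

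Within each library the balance of Klrc1 against Klrc2 does not depend on scaling between libraries. The ratio of Klrc1 to Klrc2 estimated counts was 0.788, 0.920 and 0.489 in MFL NK cells, 0.951, 3.08 and 0.742 in CD49a- LM NK cells, 6.39, 2.05 and 2.06 in CD49a+ LM NK cells and 1.00, 1.75 and 2.17 in MFL ILC1. In estimated counts, Klrc2 exceeded Klrc1 in all 3 MFL NK libraries, and Klrc1 exceeded Klrc2 in all 3 CD49a+ LM NK libraries. These counts are not corrected for gene length, so a ratio of 1 does not mark equal levels. Per kilobase of mean coding transcript length, Klrc1 and Klrc2 averaged 195 and 187 CPM in MFL NK cells. In CD49a+ LM NK cells they averaged 301 and 75.8 CPM per kilobase. The geometric mean ratio was 4.24-fold higher in CD49a+ LM NK cells than in MFL NK cells, with an exact two-sided permutation p of 0.1, the smallest that 3 libraries against 3 allow (0.167 after Benjamini-Hochberg adjustment over 15 ratio comparisons). CD49a+ LM and CD49a- LM NK cells overlapped in this ratio (exact permutation p = 0.3). The ratio of Klrc1 to Klrd1 was 0.739 to 1.05 in MFL NK cells, 1.16 to 1.63 in CD49a- LM NK cells, 1.80 to 4.24 in CD49a+ LM NK cells and 2.07 to 2.34 in MFL ILC1. It separated the 2 metastasis populations without overlap (exact permutation p = 0.1, 0.167 after adjustment).

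**Figure D2:**
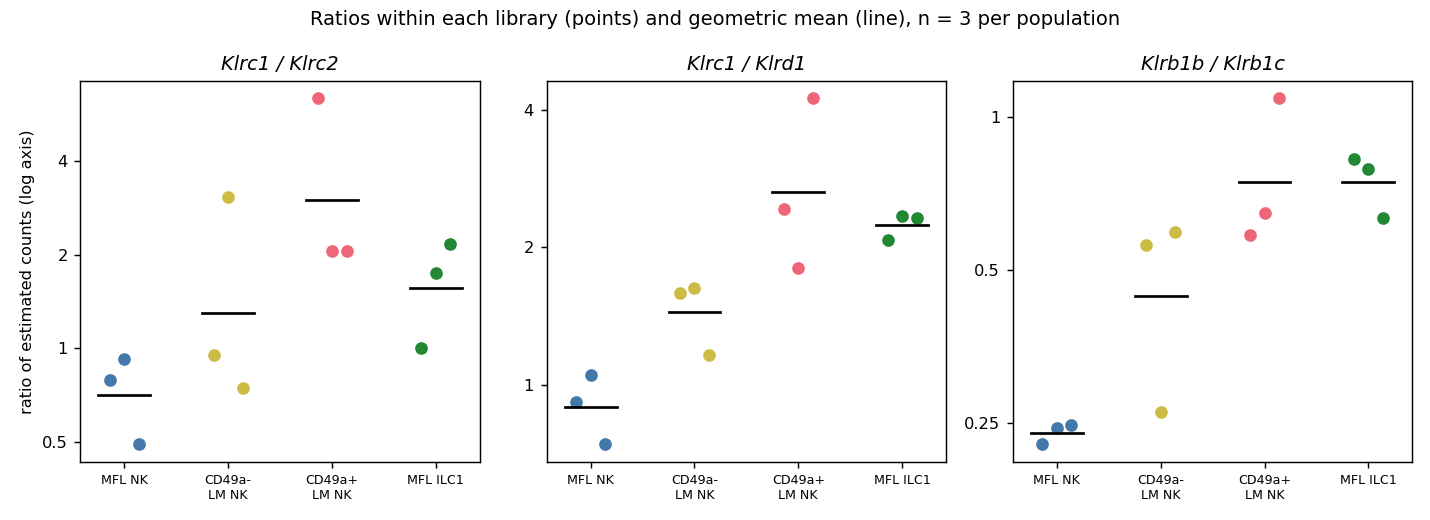
Ratios of estimated counts within each library (points, log axes) for Klrc1 to Klrc2, Klrc1 to Klrd1 and Klrb1b to Klrb1c, with the geometric mean of 3 libraries as a line. The ratios are not corrected for gene length, so 1 does not mark equal levels. The Klrc1 to Klrc2 ratio is under 1 in every MFL NK library and at least 2.05 in every CD49a+ LM NK library. The Klrb1b to Klrb1c ratio is lowest in the MFL NK libraries, at 0.226 to 0.248.

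Since Klrc1, Klrc2 and Klrc3 share reads, their counts were also summed to one feature, which the division of shared reads among them cannot move. The sum was lower in CD49a+ LM NK cells than in MFL ILC1, by -0.89 on the log2 scale (SE 0.22, edgeR adjusted p = 0.0398). Between MFL ILC1 and MFL NK cells it differed by 0.63 (SE 0.22, edgeR adjusted p = 0.224), so that the call of Klrc1 alone was not matched by a call of the sum. Between CD49a+ LM and CD49a- LM NK cells the sum differed by 0.05 (SE 0.22, edgeR adjusted p = 0.973).

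The 250 bases before the start sites of Klrc1 (chr6:129655937-129656186) and Klrc2 (chr6:129637520-129637769), both on the minus strand of GRCm39, are shown because these near copies differed in their levels across the populations. Capitals mark matches to the RUNX core TGTGGT or its reverse complement ACCACA.
Klrc1: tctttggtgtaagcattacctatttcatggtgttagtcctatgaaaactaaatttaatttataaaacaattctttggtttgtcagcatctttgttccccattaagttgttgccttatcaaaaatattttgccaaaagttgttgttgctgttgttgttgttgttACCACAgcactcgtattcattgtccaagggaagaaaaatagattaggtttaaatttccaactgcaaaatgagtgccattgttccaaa
Klrc2: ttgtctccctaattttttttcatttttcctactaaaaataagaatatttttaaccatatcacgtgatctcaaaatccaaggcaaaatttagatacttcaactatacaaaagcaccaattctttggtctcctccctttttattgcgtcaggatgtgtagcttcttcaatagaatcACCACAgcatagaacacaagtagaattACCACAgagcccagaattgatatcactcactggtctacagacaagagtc

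The RUNX core, searched on both strands, was present in this window of 6 members (Klrb1a, Klrb1c, Klre1, Klrd1, Klrc2 and Klrc1) and of 13.023% of all 21770 genes searched. The members that are near copies share ancestry, so their matches are not independent. The other motifs searched on both strands were AP-1 (TGANTCA, 6.174% of all genes, 1 member), ETS (CCGGAA, 12.398%, 0 members), the GATA factor site (letters AGATAA, 9.605%, 1 member) and TCF-1 (TCAAAG, 14.116%, 3 members). They were chosen after the members' values were known.

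Klrk1, which encodes NKG2D, was among the most abundant of the 10. Its level was measured at 1053, 789 and 816 CPM in MFL NK cells, at 662, 904 and 659 CPM in CD49a- LM NK cells, at 574, 623 and 525 CPM in CD49a+ LM NK cells and at 840, 654 and 739 CPM in MFL ILC1. The 3 CD49a+ LM NK libraries were below all 9 others. No difference of Klrk1 was called in edgeR, where the lowest adjusted p was 0.357, for CD49a+ LM NK cells against MFL NK cells (-0.63, SE 0.22). By limma-voom, Klrk1 was called lower in MFL ILC1 against MFL NK cells (-0.22, limma adjusted p = 0.0941). In that comparison limma-voom called 2645 genes, beside 416 in edgeR. Klre1, whose product pairs with KLRI1 or KLRI2, ranged from 156 to 318 CPM, its populations had means of 197 to 258 CPM, and their libraries overlapped between neighbours in the order of means.

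Klrb1b, which encodes the inhibitory member of the NKR-P1 family and binds Clr-b (Clec2d), was the one receptor that edgeR called in both CD49a+ populations against MFL NK cells, whereas DESeq2 and edgeR with no filter on low counts also called Klrg1 in both. It was measured at 206, 153 and 146 CPM in MFL NK cells, at 274, 199 and 378 CPM in CD49a- LM NK cells, at 324, 296 and 494 CPM in CD49a+ LM NK cells and at 467, 381 and 412 CPM in MFL ILC1. All 6 libraries of CD49a+ LM NK cells and MFL ILC1 lay above those of MFL NK cells, with CD49a- LM NK cells reaching into both ranges. Klrb1b was higher in CD49a+ LM NK cells than in MFL NK cells by 1.14 on the log2 scale (SE 0.27, edgeR adjusted p = 0.0813) and MFL ILC1 exceeded MFL NK cells by 1.32 (SE 0.27, edgeR adjusted p = 0.00824). These comparisons share the MFL NK libraries. The value for CD49a- LM NK cells was 0.75 (SE 0.26, edgeR adjusted p = 0.699), and that for CD49a+ LM against CD49a- LM NK cells 0.39 (SE 0.26, edgeR adjusted p = 0.601).

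The Klrb1b call in CD49a+ LM NK cells lay close to the threshold. The adjusted p in edgeR was 0.156, 0.366 and 0.416 without MFL NK replicate 1, 2 or 3, 0.148 and 0.307 without CD49a+ LM NK replicate 1 or 3, and 0.112, 0.112 and 0.110 without MFL ILC1 replicate 1, 2 or 3, with log2 fold changes from 0.88 to 1.30. The Klrb1b call in MFL ILC1 held without any single library, as did those of Klrc1 and Klrg1, with adjusted p in edgeR of at most 0.0652.

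The activating NKR-P1 receptors were called in no comparison in edgeR. Klrb1c, which encodes the NK1.1 antigen, a mouse NK cell marker and part of the flow cytometry gate of the study though not of the labelled sort, was measured at 908, 629 and 591 CPM in MFL NK cells, at 490 to 757 CPM in CD49a- LM NK cells, at 555, 459 and 454 CPM in CD49a+ LM NK cells and at 482 to 652 CPM in MFL ILC1. Klrb1a, a close relative of Klrb1c, ranged from 34.3 to 118 CPM. Klrb1f, whose product binds Clr-g (Clec2i), ranged from 105 to 188 CPM. It was higher in all MFL ILC1 libraries than in all MFL NK libraries, at means of 172 ± 17.2 and 135 ± 10.6 CPM (SD, n = 3). It did not pass the test in edgeR (adjusted p = 1). By limma-voom it was called there (0.34, limma adjusted p = 0.047), as were 2645 genes in all, beside 416 in edgeR.

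The ratio of Klrb1b to Klrb1c was narrow in MFL NK cells, at 0.226, 0.244 and 0.248. It was 0.560, 0.262 and 0.593 in CD49a- LM NK cells, 0.584, 0.646 and 1.09 in CD49a+ LM NK cells and 0.826, 0.790 and 0.633 in MFL ILC1. Every library of the other 3 populations lay above the MFL NK libraries, and CD49a+ LM NK cells overlapped both CD49a- LM NK cells and MFL ILC1. The geometric mean was 3.11-fold higher in CD49a+ LM NK cells, and likewise 3.11-fold higher in MFL ILC1, against MFL NK cells (exact permutation p = 0.1 each, the smallest possible, 0.167 after adjustment over the 15 ratio comparisons). The summed counts of the Klrb1 genes, which do not take in reads shared with Gm44511, did not differ in any comparison by a called amount, the log2 fold change in MFL ILC1 against MFL NK cells being 0.20 (SE 0.22, edgeR adjusted p = 1).

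Compared per length, the leading receptor was not the same in every population. Per kilobase of mean coding transcript length, Klrc1 reached 452 CPM in MFL ILC1 and 301 CPM in CD49a+ LM NK cells, the highest of the 10 receptors in both, against 195 CPM in MFL NK cells, where it ranked 5. In MFL NK cells Klrk1 and Klrb1c led at 322 CPM per kilobase each. Klrg1 was lowest in every population on this scale, at 47.0 CPM per kilobase in MFL NK cells and 3.28 in MFL ILC1. With merged exon length in place of transcript length, Klrc1 still ranked 1 in CD49a+ LM NK cells and MFL ILC1 and ranked 4 in MFL NK cells, whereas Klrb1c ranked 1 in MFL NK cells.

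Taking the 10 receptors as a list, the CD49a+ and CD49a- NK cells of the metastasis differed in none at an adjusted p under 0.1 in edgeR, and none was called by DESeq2 or by limma-voom either. One member, Klrc1, had an unadjusted p under 0.05, as did 11.6% of all genes. Of all genes tested, 0.0662% were called higher and 0.0736% lower in this comparison. The log2 fold change was below 0 for 8 of 10 members, with a median of -0.37 beside 0.01 for all genes tested.

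Against MFL NK cells, CD49a+ LM NK cells had 1 member called higher and 0 lower, beside 0.427% and 0.221% of all genes, and 7 members had an unadjusted p under 0.05, 2 higher and 5 lower, beside 9.74% of all genes at that unadjusted threshold. The median log2 fold change was -0.44, beside -0.04 for all genes. For CD49a- LM NK cells against MFL NK cells no member was called in edgeR or DESeq2, 2 had an unadjusted p under 0.05 (6.72% of all genes did), and limma-voom called 1 (Klrb1b), whereas 0.0662% of all genes were called higher and 0.00736% lower. The median there was -0.11, beside -0.09 for all genes.

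In MFL ILC1 against MFL NK cells, 2 of 10 members were called higher (Klrb1b and Klrc1) and 1 lower (Klrg1), beside 1.38% and 1.68% of all genes, and the median log2 fold change was 0.01, equal to that of all genes at this rounding. Between CD49a+ LM NK cells and MFL ILC1, 2 members were called lower (Klrd1 and Klrc2) and 0 higher, beside 1.29% and 2.29% of all genes. The median was -0.47, beside -0.07 for all genes. The 10 receptors summed to 2367 to 2599 CPM in CD49a+ LM NK cells, 2492 to 3042 CPM in CD49a- LM NK cells, 2826 to 3733 CPM in MFL NK cells and 2951 to 3646 CPM in MFL ILC1.

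**Figure D3:**
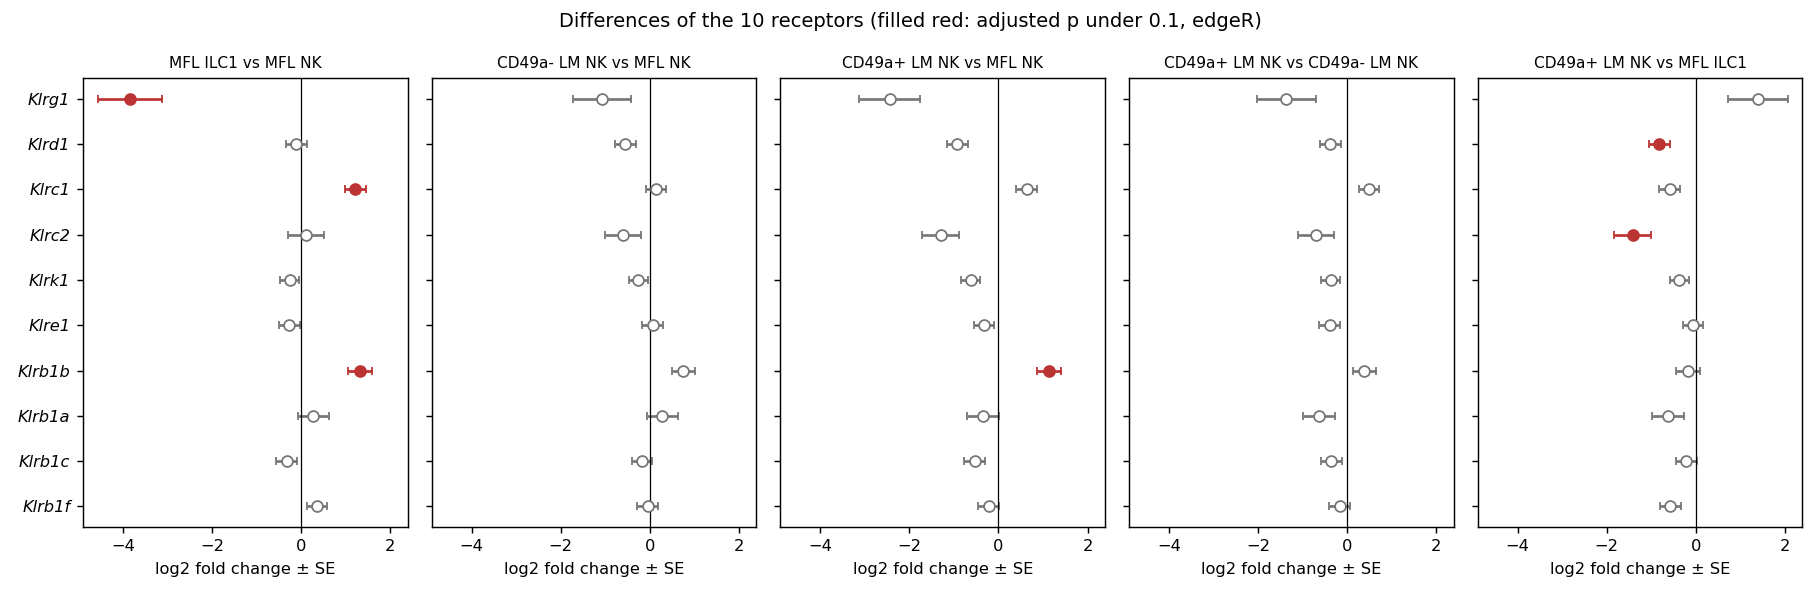
Log2 fold changes of the 10 receptors with their standard errors (bars) in 5 comparisons of 3 libraries against 3, from one edgeR fit of 12 libraries, filled in red where the adjusted p was under 0.1. In edgeR, Klrb1b is called in 2 comparisons and Klrg1, Klrc1, Klrd1 and Klrc2 in 1 each, and the CD49a+ LM against CD49a- LM panel holds no filled point.

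An interaction term took the difference between CD49a+ LM and CD49a- LM NK cells minus the difference of MFL ILC1 from MFL NK cells. The CD49a+ cells were CD49b+ NK cells in metastasis but CD49b- ILC1 in MFL. CD49a, CD49b and cell type therefore cannot be told apart in this term. No member was called in edgeR or DESeq2, whereas limma-voom called 1 (Klrb1b). At an unadjusted p under 0.05 there were 3 members, Klrg1 (2.48, SE 0.93), Klrb1b (-0.93, SE 0.37) and Klrc1 (-0.72, SE 0.33), with adjusted p in edgeR of 0.442, 0.485 and 0.557, beside 8.7% of all genes at that unadjusted threshold. Of all genes, 0.625% were called with a positive and 0.405% with a negative term.

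The partners of these receptors were read from lists of 37 genes, of which 23 could be tested. Of these 23, 0 were called between CD49a+ LM and CD49a- LM NK cells in edgeR (6 at an unadjusted p under 0.05, beside 11.6% of all genes), 1 was called higher in CD49a+ LM NK cells than in MFL NK cells (0.427% of all genes), and 0 were called in CD49a- LM NK cells against MFL NK cells (3 at an unadjusted p under 0.05, beside 6.72% of all genes). In MFL ILC1 against MFL NK cells 1 was called higher and 4 lower, beside 1.38% and 1.68% of all genes, and in CD49a+ LM NK cells against MFL ILC1 2 higher and 1 lower, beside 2.29% and 1.29%. The medians of the 23 genes lay between -0.22 and 0.10 on the log2 scale over these 5 comparisons, beside -0.09 to 0.01 for all genes.

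Among the ligands, Cdh1, which encodes E-cadherin, the ligand of KLRG1, was detected in the sorted lymphocyte libraries. Its estimated counts were 0 to 2 in the MFL NK libraries, 0 to 40 in CD49a- LM NK cells, 148 to 517 in CD49a+ LM NK cells and 486 to 880 in MFL ILC1. The CD49a+ populations did not overlap the CD49a- populations. Set against a floor of 3 counts per library, Cdh1 was at least 123-fold higher in CD49a+ LM NK cells (edgeR adjusted p = 0.0071) and at least 244-fold higher in MFL ILC1 (edgeR adjusted p = 0.000566) than in MFL NK cells. Against CD49a- LM NK cells, whose counts of 0 to 40 gave a mean of 1.71 CPM beside 28.1 CPM in CD49a+ LM NK cells, the difference was not called (edgeR adjusted p = 0.268). Summed epithelial tumor markers (Epcam, Krt8, Krt18 and Krt19) were at 0 to 10.5 CPM in CD49a+ LM NK cells, where Krt8, Krt18 and Krt19 were at 0, and at 12.5 to 20.5 CPM in MFL ILC1, where Krt18 and Krt19 were at 0. In MFL NK cells and CD49a- LM NK cells the sum was at most 2.53 CPM, so it moved with Cdh1. Its main gene was Epcam, with a mean of 5.28 CPM in CD49a+ LM NK cells and 17.7 CPM in MFL ILC1, and the part of epithelial cells in the Cdh1 values was not tested.

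**Figure D4:**
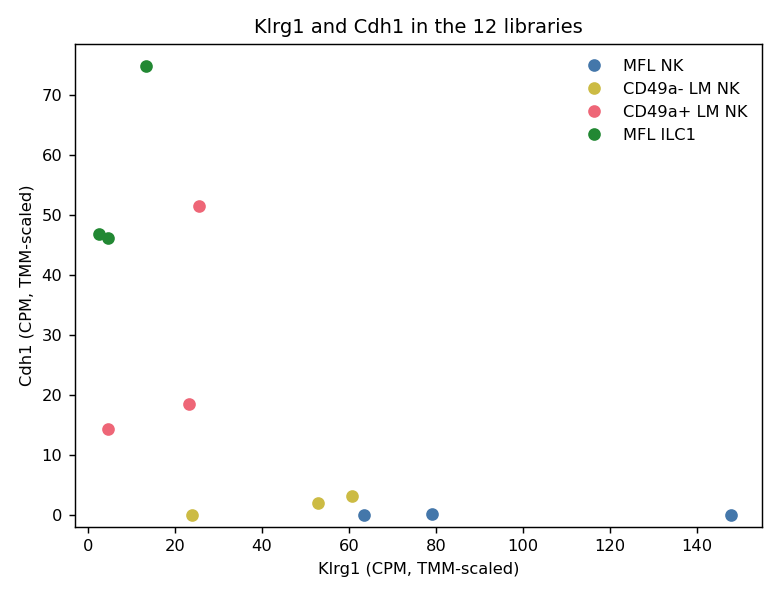
Klrg1 (x axis) and Cdh1 (y axis) in CPM in each of the 12 lymphocyte libraries, colored by population. The MFL NK libraries lie at 63.5 CPM Klrg1 or more with Cdh1 at or under 0.147 CPM, and the MFL ILC1 libraries at 13.3 CPM Klrg1 or less with Cdh1 at 46.0 CPM or more.

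Of the ligands of the other receptors, H2-T23, which encodes Qa-1, was measured at 125 to 194 CPM in MFL NK cells and at 226 to 343 CPM in MFL ILC1 without passing the test (log2 fold change 0.76, SE 0.26, edgeR adjusted p = 0.205). Clec2d, the Klrb1b ligand, was measured in every library, at 54.7 to 245 CPM, and edgeR called it in no comparison. The NKG2D ligand gene Ulbp1 lay at 1.74 to 41.8 CPM, whereas H60c was at 0 in every library.

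Among the adaptors and kinases, Cd247, which encodes the CD3 zeta chain that carries signals of NKp46, was called most often. Its libraries stood at 245, 227 and 202 CPM in MFL NK cells, at 217, 129 and 243 CPM in CD49a- LM NK cells, at 111, 190.1 and 187 CPM in CD49a+ LM NK cells and at 32.9, 62.0 and 64.8 CPM in MFL ILC1. Relative to MFL NK cells, Cd247 was lower in MFL ILC1 by -2.08 on the log2 scale (SE 0.32, edgeR adjusted p = 0.00067), higher in CD49a+ LM NK cells than in MFL ILC1 by 1.61 (SE 0.31, edgeR adjusted p = 0.00754), and its interaction term was 1.81 (SE 0.43, edgeR adjusted p = 0.0718). The kinases Syk (-1.26, edgeR adjusted p = 0.00962) and Fyn (-1.31, edgeR adjusted p = 0.000969) were lower in MFL ILC1 in the same comparison. Zap70, a kinase related to Syk, was lower (-1.30, edgeR adjusted p = 0.0199) and Inpp5d, the phosphatase SHIP-1, higher (0.70, edgeR adjusted p = 0.0814) in CD49a+ LM NK cells than in MFL ILC1. Hcst and Tyrobp, which encode the NKG2D adaptors DAP10 and DAP12, were called in no comparison in edgeR.

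Of the other lectin receptors of the cluster, Klri2, a partner of Klre1, was less abundant in MFL ILC1 than MFL NK cells, by -1.40 on the log2 scale (SE 0.23, edgeR adjusted p = 0.00123). The libraries stood at 482, 360.0 and 394 CPM in MFL NK cells, at 440, 352 and 459 CPM in CD49a- LM NK cells, at 205, 239 and 320 CPM in CD49a+ LM NK cells and at 171, 146 and 151 CPM in MFL ILC1. The CD49a+ LM NK libraries lay between the MFL populations without overlapping either. Klre1 itself was called in no comparison in edgeR.

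Outside these lists, the gene nearest to Klrb1b in its profile over the 12 libraries was Bcl2, a survival factor, at a root mean square distance of 0.28 on the log2 scale, and that nearest to Klrc1 was Evl, an actin regulator, at 0.24. Bcl2 averaged 377, 495, 575 and 616 CPM in MFL NK cells, CD49a- LM NK cells, CD49a+ LM NK cells and MFL ILC1. Evl averaged 305, 254, 387 and 538 CPM in the same order of populations. The nearest genes of the remaining members were Nfe2l1 for Klrk1 (0.15), Cdc42 for Klrb1c (0.18), Kif3b for Klrd1 (0.21), Snx29 for Klrc2 (0.32), Ssu72 for Klre1 (0.15), Prkacb for Klrb1f (0.15) and Sap130 for Klrb1a (0.23). Among the members themselves, Klrb1c and Klrk1 were the closest pair, at 0.16. These distances share the libraries and their depth and are given as descriptions over 12 libraries.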

How the data were processed

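Bulk RNA-seq of sorted lymphocytes was measured in 12 libraries, 3 per population. Deposited values were the authors' estimated counts of reads per gene, obtained by trimming with Trim Galore, assigning stranded paired-end reads to GENCODE transcripts of GRCm39 with Salmon 1.5.0 and summing to genes with tximport, and were deposited as whole numbers without normalization. Salmon divides reads shared by near copies by a statistical model, which can move counts among Klrc1, Klrc2 and Klrc3 and among the Klrb1 genes. For the 6 macrophage libraries (3 of F4/80high and 3 of F4/80low cells) the deposited values are whole-number counts.

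Of 54309 identifiers, 53700 were named from the GENCODE annotation of GRCm39. Genes were kept by filterByExpr, scaled by TMM and compared in one edgeR 4.0.16 quasi-likelihood fit of 12 libraries (R 4.3.3), with Benjamini-Hochberg adjustment over 13594 genes and calls at an adjusted p under 0.1. Lymphocyte CPM are TMM-scaled, with no pseudocount, except that the log2 CPM behind the profile distances used a prior count of 2. Macrophage CPM are counts over library totals, without TMM. The SE was approximated from the F statistic of each test (absolute log2 fold change over root F). The fit was tested on simulated counts. Alternatives were DESeq2 1.42.0, limma-voom with library quality weights (limma 3.58.1, called limma-voom here), other scalings and no filter. Others were only the compared populations, a replicate block, a threshold of 0.05, summed near copies, and leaving out each library. Ratios of 2 members were compared on log2 values by exact two-sided permutation tests. Summed marker and profile values are descriptions. The named genes are the 10 members, the nearest profile to each (mean of at least 5 CPM, smallest root mean square distance of centred log2 CPM), and genes from the partner lists. Figures used Python with matplotlib. The members and lists were chosen with earlier results of these data known. The single-cell, flow cytometry and human data of the study were not analysed here.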

Additional observations from a re-analysis of the deposited data

Results flagged for a closer look

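The macrophage libraries, which lie outside the lymphocyte comparisons, listed 9 of the 10 receptors. Differences between the 3 F4/80low and the 3 F4/80high libraries were not tested. Klrg1 was not among the 13759 genes listed, of which the lowest total over the 6 libraries was 37 counts. Neither was Ncr1, which encodes NKp46, whereas the other markers of type 1 lymphocytes and NK cells were listed. In F4/80low cells the mean was 105 CPM for Klrb1b (138, 80.0 and 97.5 CPM in the single libraries), 74.1 CPM for Klrk1 (96.3, 72.1 and 54.0 CPM) and 58.3 CPM for Klrd1 (66.2, 56.3 and 52.4 CPM), beside 12.02, 5.24 and 1.19 CPM in F4/80high cells. The other 6 were low there, with means of 2.54 CPM for Klrb1f, 2.24 CPM for Klrb1c, 1.14 CPM for Klre1, 1.03 CPM for Klrc1, 0.827 CPM for Klrc2 and 0.574 CPM for Klrb1a.

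The proportions differed from those of the lymphocytes. The ratio of Klrd1 to Klrc1 counts was 40.3 to 109 in the F4/80low libraries and 0.236 to 1.35 in the 12 lymphocyte libraries, and that of Klrb1b to Klrb1c was 26.9 to 97.0 beside 0.226 to 1.09. Flt3, a marker of dendritic cells and their precursors, averaged 101 CPM in F4/80low and 2.20 CPM in F4/80high cells. In F4/80low cells the other 3 dendritic cell markers were at 8.13 CPM for Clec9a, 2.33 CPM for Xcr1 and 1.90 CPM for Siglech, beside 1.97, 1.61 and 0.451 CPM in F4/80high cells. Among the type 1 lymphocyte and NK cell markers, Il2rb averaged 14.4, S1pr5 7.69 and Tbx21 4.94 CPM in F4/80low cells, beside 4.90, 0.115 and 0.273 CPM in F4/80high cells. Nkg7 (2.84 beside 1.18 CPM), Itga2 (1.44 beside 0.133 CPM) and Eomes (0.864 beside 0.390 CPM) were also higher there. Itgam (1216 beside 1457 CPM) and Irf8 (313 beside 321 CPM) were lower. The part of dendritic cells or NK cells in these levels was not tested. The tables were normalized separately, so levels are not compared between them.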

How the results depend on the processing

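The number of receptors called depended on the test in 5 of 6 comparisons. CD49a+ LM against MFL NK cells had 1 call, but 4 with no filter on low counts (Klrd1, Klrc2 and Klrg1 added), 3 by DESeq2 (Klrd1 and Klrg1 added), 2 by limma-voom (Klrc2 added), and 0 with only the compared populations, at a threshold of 0.05 or with near copies summed. CD49a- LM against MFL NK cells had 0 calls and 1 by limma-voom, which called 104 genes there beside 10 in edgeR. MFL ILC1 against MFL NK cells had 3, but 5 by limma-voom, which called 2645 genes there beside 416 in edgeR, and 1 (Klrg1) with near copies summed. In that setting the Klrc and Klrb1 genes entered only as sums, so their calls, here and for CD49a+ LM against MFL NK cells, were lost by construction. CD49a+ LM NK cells against MFL ILC1 had 2, but 3 by limma-voom (Klrc1 added) and 0 with only the compared populations or at 0.05. The interaction had 0, and 1 with no filter (Klrg1) or by limma-voom. With no filter 264 genes were called and by limma-voom 180, beside 140 in the main fit. Leaving out each library gave 0 to 0 calls for CD49a+ LM against CD49a- LM, 0 to 2 for CD49a+ LM against MFL NK cells, 0 to 0 for CD49a- LM against MFL NK cells, 3 to 3 for MFL ILC1 against MFL NK cells, 0 to 2 for CD49a+ LM NK cells against MFL ILC1 and 0 to 0 for the interaction. Causes were not tested. The paper collected the pooled samples in 3 independent sortings, and whether a replicate number marks a shared sorting is not known. Deviations from population means correlated at -0.045 to 0.098 between libraries of the same number (18 pairs), which cannot exclude pairing. With a replicate block 1 receptor (Klrc2) was called in CD49a+ LM NK cells against MFL ILC1.

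Signs turned only in uncalled values near 0. For CD49a- LM against MFL NK cells, Klrb1f was 0.01 with DESeq2 size factors and 0.01 by DESeq2, and Klre1 was -0.01 with library totals. By limma-voom, Klrb1a was -0.03 and Klrc2 -0.01 in MFL ILC1 against MFL NK cells, and Klre1 was 0.00 in CD49a+ LM NK cells against MFL ILC1. Without single libraries, the ranges were -0.30 to 0.03 for Klrb1f in CD49a+ LM against CD49a- LM NK cells. In CD49a- LM against MFL NK cells they were -0.33 to 0.04 for Klrb1c, -0.25 to 0.07 for Klrb1f, -0.13 to 0.17 for Klre1 and -0.03 to 0.24 for Klrc1. They were -0.19 to 0.25 for Klrc2 in MFL ILC1 against MFL NK cells, -0.14 to 0.08 for Klre1 in CD49a+ LM NK cells against MFL ILC1, -0.25 to 0.12, -0.24 to 0.08 and -0.26 to 0.05 for the interactions of Klrb1c, Klre1 and Klrk1, and -0.28 to 0.17 for the log2 ratio of Klrb1b to Klrb1c in CD49a+ LM NK cells against MFL ILC1, an alternative chosen after seeing the data. Library totals moved the median of all genes to -0.17 for CD49a- LM against MFL NK cells and to -0.12 for CD49a+ LM NK cells against MFL ILC1. Of all genes, 19 were called for CD49a+ LM against CD49a- LM NK cells (0 to 543 over the alternatives), 88 for CD49a+ LM against MFL NK cells (26 to 371), 10 for CD49a- LM against MFL NK cells (1 to 161), 416 for MFL ILC1 against MFL NK cells (268 to 2645), 486 for CD49a+ LM NK cells against MFL ILC1 (257 to 1010) and 140 for the interaction (75 to 349).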
